A study of Mus musculus with 12 samples.

Results

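Expression of 6 genes of photoreceptor cGMP synthesis was followed across 4 groups of mouse retina: Gucy2e and Gucy2f, which encode the retinal guanylate cyclases; Guca1a and Guca1b, which encode their calcium-sensing activators; Rd3, which encodes a cyclase partner; and Impdh1, which encodes an enzyme of GTP supply. They were taken by gene name, and all 6 were found among the 32867 genes of the table. Total RNA of whole retina, depleted of ribosomal RNA, was sequenced from 12 samples, 3 in each group, at ages chosen by the study as the peak of photoreceptor death. The C3H group carried wild-type alleles and held 1 sample each from postnatal days 13, 23 and 29. Pde6b rd1 retinas, which carry a mutant rod phosphodiesterase beta subunit, were from day 13, and the study's methods place this line on C3H. Pde6b rd10 retinas, with another mutation of the same gene, were from day 23 and, by the methods, from C57Bl6/J mice. Prph rd2 retinas, with a mutant peripherin, a structural protein of outer segment discs, were from day 29; the methods give C3H for this line and the labels C57BL6/J. Each model was sampled at 1 age, for which C3H holds 1 sample of the same day; between the models genotype and age cannot be told apart, nor, for some lines, genotype and strain. By the methods, animals were used irrespective of sex. Sex-linked transcripts, given below, separated C3H from each model, so genotype and sex cannot be told apart in any comparison with C3H. The study calls its replicates biological, while the labels name no animals, and p-values measure the spread between these samples.

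Photoreceptors hold their cation channels open with cGMP, which the guanylate cyclases make from GTP and phosphodiesterase 6 breaks down after light. When calcium falls in the light, the guanylate cyclase activating proteins switch from inhibiting to stimulating the cyclases, and so restore cGMP. RD3 binds the cyclases, keeps them inactive and is needed for their transport to the outer segment, and IMP dehydrogenase controls the step that commits purines to GTP. Loss of phosphodiesterase 6 activity is known to raise cGMP in rod photoreceptors.

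The gene counts of a sample summed to 17049495 at the least and 24755890 at the most, and the members had between 301 and 14906 counts in each sample, far above the floor of 3 counts. The mutated genes differed from C3H by a log2 fold change of -2.16 for Pde6b in Pde6b rd1, -0.57 for Pde6b in Pde6b rd10 and -1.06 for Prph2 in Prph rd2. Rod markers were present in every group, and their summed level was 49.3% of that in C3H for Pde6b rd1, 72.2% for Pde6b rd10 and 79.7% for Prph rd2, and cone markers stood at 67.8, 149 and 105% in the same order. Markers within a sum moved unequally. The cone marker Gngt2 went against its sum, at 193% of C3H in Pde6b rd1 and 51.6% in Pde6b rd10. The samples are whole retinas, so that fewer cells of a type and less RNA per cell cannot be told apart. Xist, which is transcribed from the inactive X chromosome, had 8 to 10 counts in the C3H samples and at least 13428 in every sample of the models. Of the Y-linked genes Ddx3y, Eif2s3y, Kdm5d and Uty, all 4 had 0 counts in every Pde6b rd1 sample, against 1098 to 2219 in C3H, 763 to 1696 in Pde6b rd10 and 521 to 919 in Prph rd2. Transcripts of the sex chromosomes thus differed with the group, and every sample of Pde6b rd10 and Prph rd2 held both Xist and Y-linked reads.

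The 6 genes lie at 5 places in GRCm38, by GENCODE annotation. Gucy2e is on chromosome 11 (69218117 to 69237036, minus strand) and Gucy2f on chromosome X (142081160 to 142196931, minus strand). Guca1b (chromosome 17, 47385393 to 47392967, plus strand) and Guca1a (47394558 to 47400584, minus strand) end towards each other, 1591 bases apart. Rd3 is on chromosome 1 (191977370 to 191988283, plus strand) and Impdh1 on chromosome 6 (29200434 to 29216364, minus strand). An antisense gene, Gm26670, overlaps 1452 of the 5313 exonic bases of Rd3 and had 8 to 34 counts per sample. The libraries were directional, but the study's methods do not state whether the counting used the strand. The effect of the overlap on the Rd3 counts was not tested.

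The RefSeq promoter table of build GRCm38.p6 held 5 of the 6 members. It had no entry for Guca1b, whose promoter was not searched. The 250 bases before the start were searched on both strands for TAATC and for the longer TAATCC, which contains it. TAATC is the core of sites bound by Crx and Otx2, homeodomain factors of photoreceptors. The promoters of Gucy2e, Gucy2f and Guca1a held 4, 3 and 1 copies of TAATC, of which 1, 2 and 1 were TAATCC. No copy lay in the 2 promoters of Rd3 or the 2 of Impdh1, while 19.8% of all 32851 promoters held TAATC and 6.25% held TAATCC. The promoters with matches are shown because they belong to both cyclases and to the activator that moved most differently between the models; capitals mark TAATC or its reverse complement, GATTA, and each runs 5′ to 3′ on the gene's own strand.
Gucy2e, chr11:69237023-69237272, minus strand: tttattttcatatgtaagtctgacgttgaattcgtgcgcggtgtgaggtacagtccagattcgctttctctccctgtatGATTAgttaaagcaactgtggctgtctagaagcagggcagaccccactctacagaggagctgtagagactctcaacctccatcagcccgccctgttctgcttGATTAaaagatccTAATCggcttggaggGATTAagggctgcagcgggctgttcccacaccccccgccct
Gucy2f, chrX:142196937-142197186, minus strand: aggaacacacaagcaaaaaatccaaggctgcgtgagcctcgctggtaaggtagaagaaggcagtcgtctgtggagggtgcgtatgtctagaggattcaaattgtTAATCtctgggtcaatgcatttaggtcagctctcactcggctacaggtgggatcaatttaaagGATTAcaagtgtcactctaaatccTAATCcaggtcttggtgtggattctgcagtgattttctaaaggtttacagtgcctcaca
Guca1a, chr17:47400607-47400856, minus strand: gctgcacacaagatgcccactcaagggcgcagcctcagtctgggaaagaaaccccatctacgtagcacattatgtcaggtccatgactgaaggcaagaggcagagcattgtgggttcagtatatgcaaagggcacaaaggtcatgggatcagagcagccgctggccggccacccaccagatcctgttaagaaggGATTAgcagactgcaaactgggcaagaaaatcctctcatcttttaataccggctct
The TAATCC copies began 42 bases before the start in Gucy2e, 57 in Guca1a, and 59 and 84 in Gucy2f. A match of letters describes the sequence and does not show that a factor binds there. Of the other motifs searched, CCAAT was present in both Rd3 promoters and in 33.8% of all promoters. TGCTGA and TATAAA were in none of the members' promoters, and in 16.1 and 12.4% of all promoters.

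In wild-type retina Impdh1 and Guca1b had the highest levels per length and Rd3 and Gucy2f the lowest. In FPKM, the reads of a gene scaled by its length and by the depth of the sample, Impdh1 stood at 172.9 ± 8.41 (SD, n = 3) and Guca1b at 162.2 ± 4.23, with overlapping samples. Guca1a followed at 81.4 ± 5.62 and Gucy2e at 65.3 ± 0.461, each apart from its neighbours. Rd3 at 46.3 ± 2.11 and Gucy2f at 45.7 ± 2.02 overlapped. The activators thus had more transcripts per length than either cyclase. Across the C3H samples of days 13, 23 and 29, the range of log2 CPM (counts scaled to library size after TMM normalization) lay between 0.04 for Gucy2e and 0.19 for Guca1a, with 1 sample a day and no test.

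**Figure D1:**
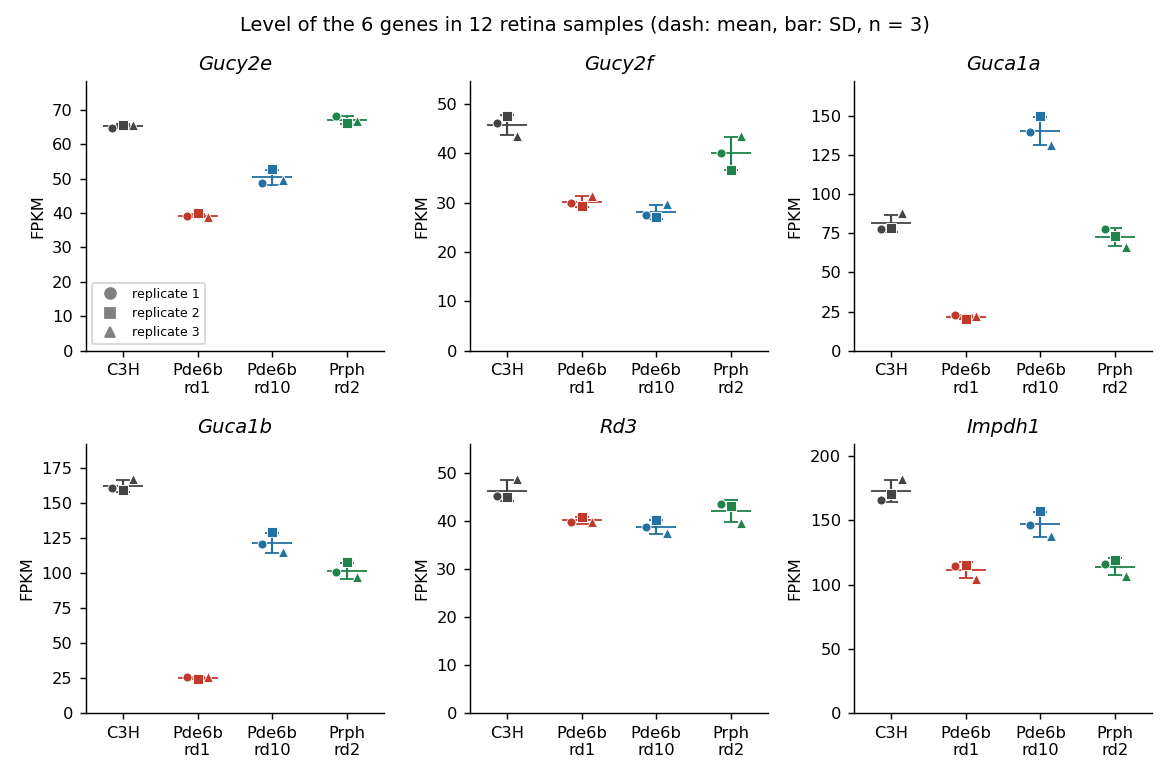
FPKM of each member in the 12 samples by group, with a dash for the mean, a bar for the SD and marker shapes for replicate numbers; each axis starts at 0. The Guca1b samples of Pde6b rd1 sit between 24.6 and 26.2 FPKM against 159.2 to 167.0 in C3H, while the Guca1a samples of Pde6b rd10 sit between 131.7 and 149.9 against 78.0 to 87.9.

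More members were called in Pde6b rd1 than in the other models. A call required a fold change of 1.5 or more and an unadjusted p below 0.05 in edgeR's quasi-likelihood test. The thresholds are those of the study, which tested with DESeq2, so the calls here are not the study's own. In Pde6b rd1 against C3H, 5 of the 6 members were called, all lower, where 6.03% of the 18310 genes tested were called lower. The activators fell most, Guca1b to 14.9% and Guca1a to 25.4% of C3H, and the members' median log2 fold change was -0.76 against -0.01 over all genes tested. All 6 passed at an edgeR adjusted p under 0.05 and were lower, as were 21.3% of all genes, and all 6 were apart from C3H in CPM, as were 51.8% of genes. In Pde6b rd10 against C3H, 1 member, Guca1a, rose and 1, Gucy2f, fell, where 15.9% of 18704 genes were called higher and 8.08% lower. The members' median was -0.37, against -0.00 over all genes. At an edgeR adjusted p under 0.05, 5 members were lower, with 26.3% of genes, and 1 higher, with 27.7%, and all 6 were apart from C3H in CPM, with 59.2% of genes. In Prph rd2 against C3H, Guca1b and Impdh1 fell, 2 of 6 members, where 1.89% of 18581 genes were called lower, and the median was -0.21 against -0.00. At an edgeR adjusted p under 0.05, 3 members were lower, with 5.17% of genes, and 5 were apart from C3H in CPM, with 28.8% of genes. The 3 comparisons share their C3H samples, so their directions are given side by side only.

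Gucy2e encodes guanylate cyclase E, the main cyclase of rods and cones. In C3H it read 64.8, 65.6 and 65.6 FPKM, and in Pde6b rd1 39.1, 39.9 and 38.9. The Pde6b rd10 samples read 48.7, 52.8 and 49.5 and the Prph rd2 samples 68.2, 66.1 and 66.8. Both Pde6b groups lay below C3H and apart from each other. Prph rd2 lay just above C3H in FPKM and overlapped it in CPM. Gucy2e fell 1.75-fold in Pde6b rd1 (log2 fold change -0.81, SE 0.03, edgeR adjusted p 5.24e-17). In Pde6b rd10 it passed the test at a log2 fold change of -0.43 (SE 0.04, edgeR adjusted p 3.22e-09) without reaching 1.5-fold. In Prph rd2 the log2 fold change was 0.01, with a 95% interval from -0.08 to 0.09 and an edgeR adjusted p of 0.955.

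Gucy2f encodes guanylate cyclase F, found mostly in rods. Its C3H samples read 46.0, 47.5 and 43.5 FPKM and its Prph rd2 samples 40.0, 36.7 and 43.4. Pde6b rd1 gave 29.8, 29.4 and 31.4, and Pde6b rd10 gave 27.4, 27.0 and 29.8. Both Pde6b groups were low and overlapped each other, and Prph rd2 lay between them and C3H. The gene fell 1.59-fold in Pde6b rd1 (log2 fold change -0.67, SE 0.04, edgeR adjusted p 1.68e-13) and 1.69-fold in Pde6b rd10 (-0.76, SE 0.04, edgeR adjusted p 3.23e-12). The call in Pde6b rd1 was lost on log2 of FPKM plus 1, where the difference was -0.58. In Prph rd2 the log2 fold change of -0.22 (SE 0.06) had an edgeR adjusted p of 0.0315 and stayed under 1.5-fold. Gucy2f is X-linked, and Xist and Y-linked transcripts differed with the group, as given above. The part of sex in these values was not tested, and in each model against C3H it cannot be told apart from genotype.

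Guca1a encodes guanylate cyclase activating protein 1, used by rods and cones. In C3H it read 78.0, 78.3 and 87.9 FPKM, and in Pde6b rd1 22.6, 20.2 and 22.3. The Pde6b rd10 samples read 140.1, 149.9 and 131.7, and the Prph rd2 samples 78.0, 73.0 and 66.5. The models of the same gene thus lay on opposite sides of C3H, without overlap. Prph rd2 overlapped C3H in FPKM and lay below it in CPM. Guca1a fell 3.93-fold in Pde6b rd1 (log2 fold change -1.98, SE 0.06, edgeR adjusted p 9.65e-18). It rose 1.66-fold in Pde6b rd10 (0.73, SE 0.06, edgeR adjusted p 5.77e-10). In Prph rd2 the log2 fold change was -0.20, with a 95% interval from -0.35 to -0.05 and an edgeR adjusted p of 0.0888.

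Guca1b encodes guanylate cyclase activating protein 2, found mostly in rods. Its C3H samples read 160.3, 159.2 and 167.0 FPKM, against 25.6, 24.6 and 26.2 in Pde6b rd1. The Pde6b rd10 samples read 120.4, 129.2 and 115.2 and the Prph rd2 samples 100.4, 108.0 and 96.9. No group overlapped another, and every model lay below C3H. Guca1b fell 6.70-fold in Pde6b rd1 (log2 fold change -2.74, SE 0.04, edgeR adjusted p 5.44e-25), where Pde6b itself lay at -2.16. It fell 1.63-fold in Prph rd2 (-0.70, SE 0.05, edgeR adjusted p 3.30e-07). In Pde6b rd10 it passed the test at -0.47 (SE 0.04, edgeR adjusted p 7.64e-09) and was not called.

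Rd3 encodes the cyclase partner described above. It read 45.1, 45.0 and 48.7 FPKM in C3H, 39.7, 40.8 and 39.7 in Pde6b rd1, 38.6, 40.2 and 37.4 in Pde6b rd10 and 43.5, 43.1 and 39.5 in Prph rd2. All model samples lay below all C3H samples, and the models lay close together. The log2 fold changes were -0.28 (SE 0.04, edgeR adjusted p 6.56e-07) in Pde6b rd1 and -0.31 (SE 0.04, edgeR adjusted p 3.53e-06) in Pde6b rd10, both under 1.5-fold. In Prph rd2 the value was -0.17, with a 95% interval from -0.28 to -0.06 and an edgeR adjusted p of 0.0594.

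Impdh1 encodes the IMP dehydrogenase of photoreceptors. It read 165.7, 170.8 and 182.1 FPKM in C3H and 114.8, 115.1 and 104.6 in Pde6b rd1. The Pde6b rd10 samples read 146.0, 157.2 and 137.7 and the Prph rd2 samples 116.3, 118.9 and 106.5. Every model lay below C3H, and Pde6b rd1 and Prph rd2 overlapped each other. Impdh1 fell 1.63-fold in Pde6b rd1 (log2 fold change -0.71, SE 0.04, edgeR adjusted p 1.65e-13) and 1.55-fold in Prph rd2 (-0.63, SE 0.05, edgeR adjusted p 2.07e-06). In Pde6b rd10 the value was -0.29 (SE 0.05, edgeR adjusted p 1.93e-05), under 1.5-fold.

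**Figure D2:**
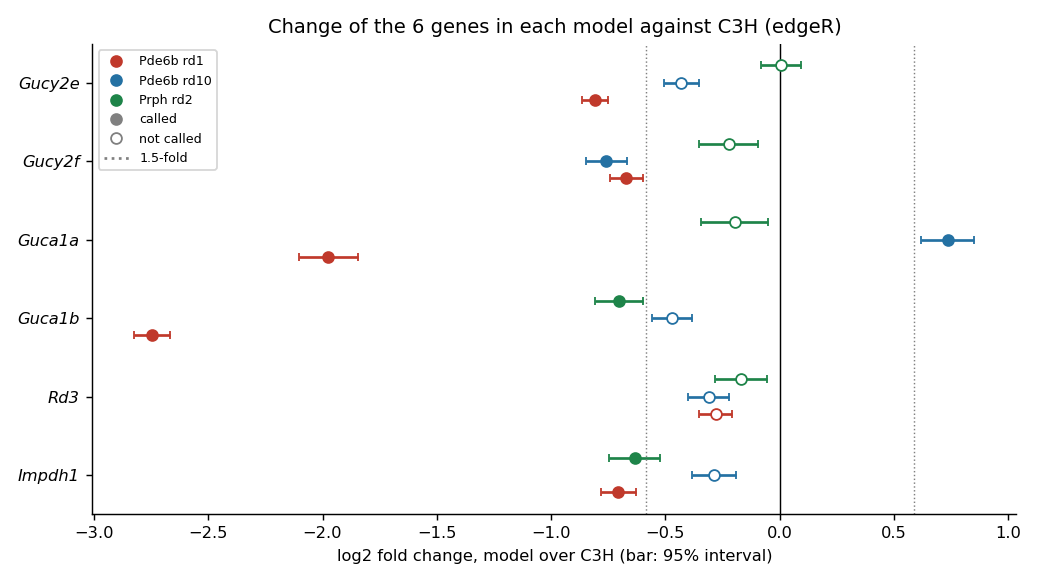
The log2 fold change of each member in each model over C3H from edgeR, with 95% intervals; filled points were called, open points were not, and dotted lines mark 1.5-fold. Guca1a lies at -1.98 in Pde6b rd1 and at 0.73 in Pde6b rd10, and the Rd3 points lie between -0.31 and -0.17.

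The models were also compared with each other in a fit of all 12 samples, which asks whether a member differed between them. In Pde6b rd10 against Pde6b rd1, Guca1a was 6.66-fold higher (log2 fold change 2.74, SE 0.08, edgeR adjusted p 6.82e-17) and Guca1b 4.93-fold higher (2.30, SE 0.05, edgeR adjusted p 4.37e-18). These were the 2 members called, where 17.6% of 19616 genes were called higher. At an edgeR adjusted p under 0.05, with no limit on the fold, 4 of the 6 members differed in this comparison, with 57.2% of genes, 5 in Prph rd2 against Pde6b rd1, with 39.8%, and 6 in Pde6b rd10 against Prph rd2, with 43.9%. Gucy2f (-0.06, 95% interval -0.18 to 0.06) and Rd3 (-0.00, 95% interval -0.10 to 0.09) did not pass the test. In Prph rd2 against Pde6b rd1, 3 members were called higher, where 8.21% of genes were: Guca1b 4.18-fold, Guca1a 3.49-fold and Gucy2e 1.78-fold. In Pde6b rd10 against Prph rd2, 1 member was called, where 13.5% of genes were called higher, namely Guca1a at 1.91-fold. Gucy2f, at -0.53 in that comparison, was called without replicate 2 of Prph rd2, at -0.60.

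The ratio of the activators within a sample does not depend on how samples are scaled to each other. Guca1b over Guca1a, in FPKM, was 1.90 to 2.06 in C3H, 1.13 to 1.21 in Pde6b rd1, 0.859 to 0.875 in Pde6b rd10 and 1.29 to 1.48 in Prph rd2. The 4 groups did not overlap, and Pde6b rd10 was the group in which Guca1a exceeded Guca1b in all 3 samples. Gucy2e over Gucy2f was 1.38 to 1.51 in C3H, 1.24 to 1.36 in Pde6b rd1, 1.66 to 1.96 in Pde6b rd10 and 1.54 to 1.80 in Prph rd2. Guanylate cyclase E transcripts thus led in every sample. Guca1b over Gucy2e was 2.43 to 2.55 in C3H and 0.616 to 0.673 in Pde6b rd1. In Pde6b rd10 it was 2.33 to 2.47, and in Prph rd2 1.45 to 1.63. Rd3 over Gucy2e was 0.686 to 0.743 in C3H and 1.02 in all 3 Pde6b rd1 samples. It was 0.755 to 0.793 in Pde6b rd10 and 0.591 to 0.652 in Prph rd2, on either side of C3H. These ratios show unequal change and do not say which gene changed.

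**Figure D3:**
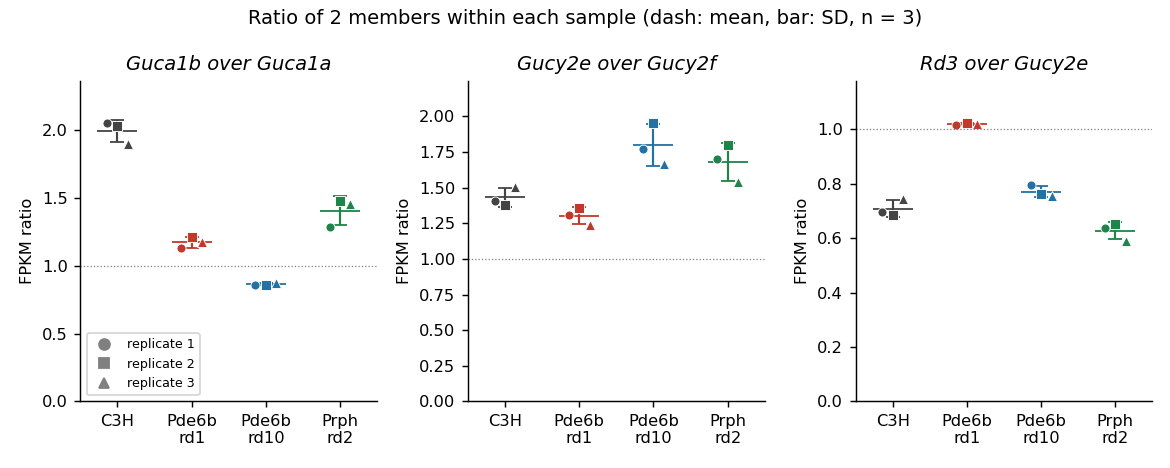
FPKM ratios of pairs of members in each of the 12 samples, with a dash for the mean and a bar for the SD; the dotted line marks equal levels. Guca1b over Guca1a is 1.90 to 2.06 in C3H and 0.859 to 0.875 in Pde6b rd10, below the line.

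The members were set against the rod cascade, 14 rod genes from the G protein transducin to the outer segment exchanger, a list of genes of the same cell type. Relative to C3H, on the log2 scale, the mean of these genes lay at -1.02 for Pde6b rd1, at -0.47 for Pde6b rd10 and at -0.27 for Prph rd2. Relative to it, in Pde6b rd1, Guca1b lay at -1.75 and Guca1a at -0.99, while Rd3 lay at 0.72, Gucy2f at 0.32, Impdh1 at 0.29 and Gucy2e at 0.19. All 6 were apart from C3H, as were 91% of all genes tested on this scale. The activators were thus lower than the mean of the rod genes and the other 4 members higher. In Pde6b rd10, Guca1a lay at 1.21, Gucy2f at -0.29, Impdh1 at 0.18 and Rd3 at 0.16, these 4 apart from C3H, as were 80.8% of all genes, while Gucy2e and Guca1b overlapped it. In Prph rd2, Guca1b lay at -0.44, Impdh1 at -0.37 and Gucy2e at 0.27, these 3 apart from C3H, as were 60% of all genes, and Gucy2f, Guca1a and Rd3 overlapped it. The rod genes themselves moved unequally, with log2 fold changes from -2.16 to -0.49 for Pde6b rd1, from -0.93 to 0.01 for Pde6b rd10 and from -0.54 to -0.08 for Prph rd2, so that these values depend on the genes in the list.

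**Figure D4:**
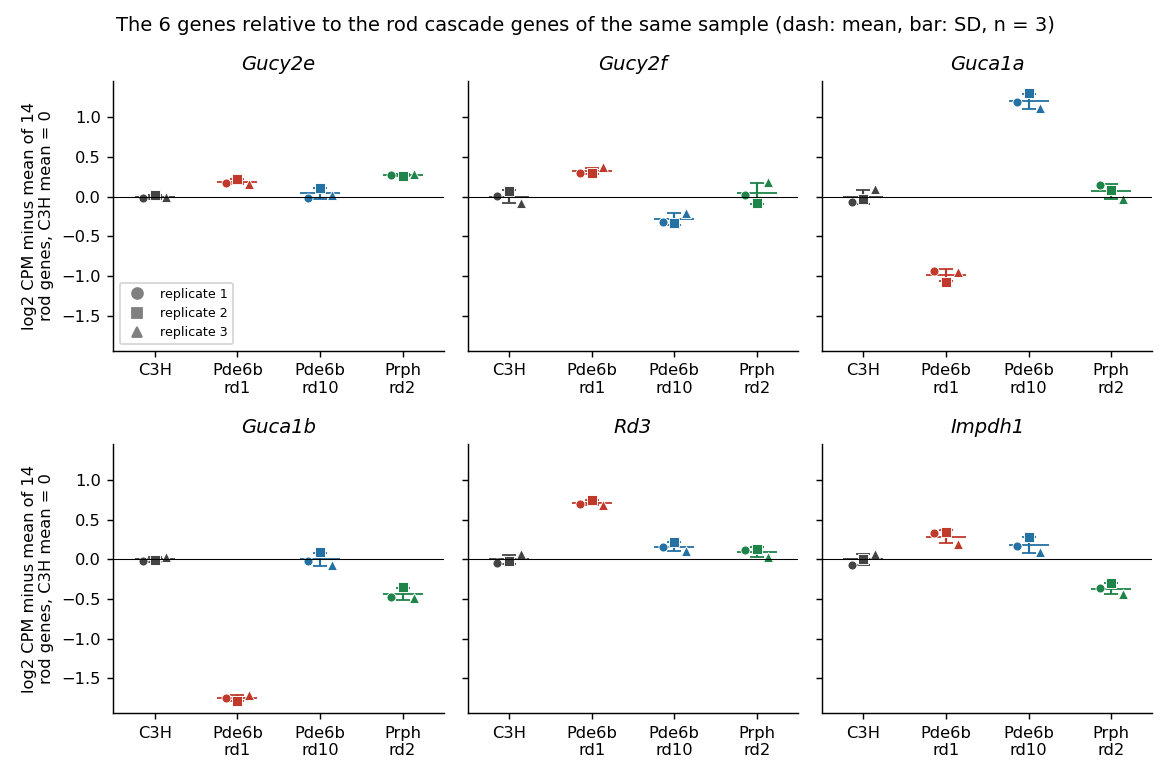
Log2 CPM of each member minus the mean log2 CPM of the 14 rod genes in the same sample, set to 0 at the C3H mean, with a dash for the group mean and a bar for the SD. Guca1b and Guca1a of Pde6b rd1 lie at -1.75 and -0.99, Rd3 at 0.72, and Guca1a of Pde6b rd10 at 1.21.

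The other genes of the pathway give the setting. Of the 14 rod cascade genes, which include Pde6b, Pde6b rd1 showed 11 that fell and Pde6b rd10 showed 5, and none rose. In Prph rd2 edgeR called 0 of the 14, with 13 at an unadjusted p under 0.05, and DESeq2 called 0 as well; without replicate 2 of Prph rd2, or against the C3H sample of day 29 alone, edgeR called 1. In Pde6b rd1 the smallest p belonged to Pde6b at -2.16, Gnat1 (rod transducin) at -1.96, Slc24a1 (the rod calcium exchanger) at -1.496 and Pde6a (the alpha subunit of rod phosphodiesterase) at -1.22. Of the 11 cone cascade genes, 5 fell and 1 rose in Pde6b rd1, 6 rose and 1 fell in Pde6b rd10, and in Prph rd2 edgeR and DESeq2 called 0, with 7 at an unadjusted p under 0.05 in edgeR. Pde6h and Pde6c, cone phosphodiesterase subunits, lay at 2.39 and 1.75 in Pde6b rd10, Slc24a2 at 1.17 and Opn1mw, a cone opsin, at 0.70. Gngt2, of the same list, fell there, at -0.95, and 4 cone cascade genes were not called. The product of Guca1a, which rose in Pde6b rd10, is also used by cones, and the part of cones in that rise was not tested.

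Lists outside the photoreceptor cascade were counted in the same way. Over all genes tested, edgeR called 2749 of 18310 in Pde6b rd1, 4479 of 18704 in Pde6b rd10 and 850 of 18581 in Prph rd2. Whether these short lists were called less often than all genes was not tested. Of the purine and GTP supply genes, 14 could be tested for Pde6b rd10 and 13 for each of the other models, and 1 was called, Nme2, a nucleoside diphosphate kinase, at 1.16 in Pde6b rd10 (SE 0.40, edgeR adjusted p 0.0197). Nme2 had only 3 to 19 counts in a sample, and DESeq2 called 0 of these genes in Pde6b rd10, as did limma on log2 of FPKM plus 1, edgeR without replicate 1 of Pde6b rd10 and edgeR against the C3H sample of day 23 alone. Their median log2 fold changes were -0.05, -0.00 and 0.02, where Impdh1 had -0.71, -0.29 and -0.63. List genes ranged from -0.46 to 0.14 in Pde6b rd1, from -0.35 to 1.16 in Pde6b rd10 and from -0.20 to 0.19 in Prph rd2. At an unadjusted p under 0.05 in edgeR were 5 of 13 in Pde6b rd1, 9 of 14 in Pde6b rd10 and 2 of 13 in Prph rd2. Of the other guanylate cyclases, 8 of the 10 listed names were in the table and 6 passed the filter; Gucy2g, with 11 to 62 counts in a sample, fell in Pde6b rd1, at -1.36 (SE 0.30, edgeR adjusted p 6.73e-04), and was not called on log2 of FPKM plus 1. Of 10 photoreceptor chaperone and traffic genes, Aipl1 (-0.87), Unc119 (-0.69) and Arl3 (-0.74) fell in Pde6b rd1 and Lca5 (-0.76) in Pde6b rd10. Aipl1 and Unc119 encode chaperones of lipid-modified photoreceptor proteins, Arl3 the small GTPase that releases their cargo, and Lca5 a ciliary protein. In Prph rd2 edgeR and DESeq2 called 0 of the 10, with 5 at an unadjusted p under 0.05 in edgeR.

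Markers of other cells moved with some groups. Summed microglia markers, 5 genes, were 128 to 135 CPM in Pde6b rd10 against 50.5 to 53.5 in C3H, and summed Mueller glia markers, 6 genes, were 1477 to 1517 CPM in Pde6b rd1 against 2889 to 2987. Of 4 pigment epithelium markers, Best1 had at most 3 counts in every C3H sample, and the sum was 21.8 to 24.1 CPM in Pde6b rd1 against 42.2 to 43.1 in C3H. In Pde6b rd1 the sums were also lower for amacrine (75.4% of C3H), ganglion (72.1%) and lens (45.8%) markers, 4 genes each, and in Pde6b rd10 they were 143% for lens, where the sum was at most 4.16 CPM, 114% for amacrine and 85.1% for the 6 bipolar markers. In Prph rd2 the sums of these lists lay between 75.3% for lens and 115% for amacrine. Their part in the members' values was not tested.

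For each member the genes most like it were taken as those with the smallest root mean square difference in log2 CPM, centred on C3H, over the 12 samples and 19601 genes. For Gucy2e these were Cav1 (0.0877), Pfkfb2 (0.0899) and Dnajc28 (0.101). For Gucy2f the nearest included A430035B10Rik (0.113) and Rdh12 (0.116), and for Guca1a they were Syne3 (0.193), Opn1mw (0.249) and Gpsm2 (0.251). For Guca1b they were Pdzph1 (0.319), Pde6b (0.376) and Hepacam (0.462). For Rd3 they were Clstn1 (0.0413), Tub (0.0443) and Camsap1 (0.0444), and for Impdh1 Fam57b (0.0471), Slc25a25 (0.101) and Ttll3 (0.103). This difference is not scaled to the size of a gene's change, so it tends to be larger for members that changed more. Among the members, the closest pair was Gucy2e and Gucy2f (0.225) and the farthest Guca1b and Rd3 (1.26), and the activators lay 0.760 apart.

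A second readout came from circRNAs, circles formed when a downstream exon end is spliced back to an upstream exon start, counted by the reads across that junction. Gucy2f held 13 of the 12510 circRNAs of the table, with 270 junction reads over all samples, while Gucy2e and Impdh1 each had 1 circRNA with 2 reads and Guca1b 1 with 4. For Guca1a and Rd3 the table listed none. The most abundant circle joined exons 4 to 6 of the 20 exons of Gucy2f, 537 bases in all, with 145 reads in 11 samples, and the next joined exons 4 to 10, 1093 bases, with 64 reads. Their junctions are shown because both share the same upstream exon start; lower case is the end of the last exon and capitals the start of exon 4, from GRCm38 on the gene's strand.
Exons 4 to 6, chrX:142156388-142161931: cactttggcagtaagGTTTCACCGTTGTTT
Exons 4 to 10, chrX:142116238-142161931: aaccttctgaagaagGTTTCACCGTTGTTT
The Gucy2f junction reads were 27, 36 and 24 in C3H and 7, 0 and 11 in Pde6b rd1. They were 35, 27 and 29 in Pde6b rd10 and 19, 18 and 37 in Prph rd2. Pde6b rd1 was low in every sample, and replicate 2 had none of 9819 junction reads, which allows up to 30.6 per 100000 at 3 counts. As a share of all circRNA junction reads, C3H had 157 to 165 per 100000, Pde6b rd1 0 to 96.9, Pde6b rd10 139 to 149 and Prph rd2 88.0 to 171. Both Pde6b models lay below C3H without overlap (two-sided exact permutation test, p = 0.1 for each, which is the smallest p that 3 against 3 samples allow), and Prph rd2 overlapped C3H (p = 0.4 in the same exact test).

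Set against the linear gene, the circles of the Pde6b models lay on either side of C3H. Per 1000 reads counted on Gucy2f, there were 3.43 to 3.88 junction reads in C3H, 0 to 2.24 in Pde6b rd1, 5.995 to 6.57 in Pde6b rd10 and 2.47 to 4.33 in Prph rd2. Pde6b rd1 lay below C3H and Pde6b rd10 above it, while Prph rd2 overlapped it. In Pde6b rd10 the junction reads, at 27 to 35, overlapped those of C3H, at 24 to 36, while the gene counts in the denominator were called lower. All circRNA junction reads together were ordered alike: per 10000 gene counts there were 7.34 to 9.17 in C3H, 5.76 to 6.85 in Pde6b rd1, 9.66 to 10.5 in Pde6b rd10 and 7.71 to 8.95 in Prph rd2. The numbers of reads are small, and the limit given at 3 counts covers counting error alone, because the reads carried no molecular identifiers and need not be independent molecules.

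**Figure D5:**
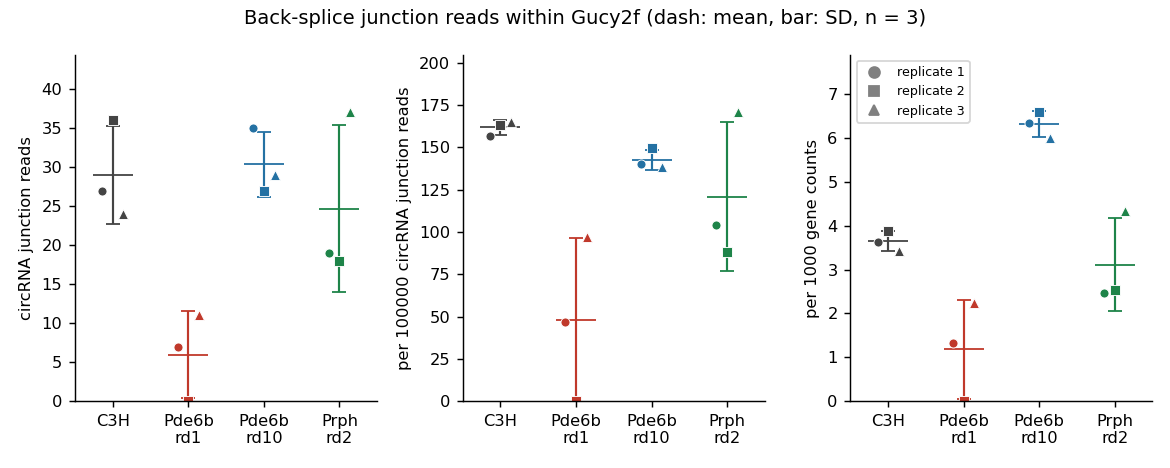
Back-splice junction reads within Gucy2f in each sample, as reads, per 100000 circRNA junction reads and per 1000 Gucy2f gene counts, with a dash for the mean and a bar for the SD. Per 1000 gene counts, Pde6b rd1 lies at 0 to 2.24 and Pde6b rd10 at 5.995 to 6.57, on either side of C3H at 3.43 to 3.88.

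Guca1a and Guca1b lie 470 and 460 kb from Prph2, the gene mutated in Prph rd2. In Prph rd2 against C3H, 42 of 336 genes tested within 15 Mb of Prph2 were called (12.5%), against 807 of 18236 elsewhere (4.43%). The part of this region in the fall of Guca1b was not tested.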

How the data were processed

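The authors deposited raw gene counts, made with HTSeq (v0.11.2) from reads aligned to GRCm38; the libraries kept strand and were depleted of ribosomal RNA. The deposited FPKM values scale these counts by a length per gene, which was checked to equal the exonic bases of each member in all samples, and by sample depth. The circRNA junction counts are back-splice reads from TopHat2 (v2.1.1) and CIRCexplorer, from which the authors dropped candidates under 2 reads; they were matched to genes by coordinates.

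Models were compared with the 3 C3H samples, 1 at a time, in R 4.3.3 with edgeR 4.0.16 (TMM, its filter on low counts, quasi-likelihood test), on all genes kept, and the models with each other by contrasts in a fit of 12 samples. Calls required a fold change of 1.5 or more and an unadjusted p below 0.05. Adjusted p-values are Benjamini-Hochberg values over all genes tested, and 95% intervals come from the standard error and the t distribution of the fit. The steps were tested on simulated data. The members and gene lists were chosen with earlier results of these data known. List genes named with values are the called ones with the smallest p, at most 4 a list and comparison. Pde6b, Prph2 and Gngt2, the cone gene called lower in Pde6b rd10, are named besides. Xist and the Y-linked genes were named after their values were seen. Some genes, 1 of them of the rod lists, are not reported here and were left out of all list values. The alternatives tried were limma 3.58.1 on log2 of FPKM with 1 or 0.1 added, DESeq2 1.42.0, a replicate block, and other size factors, filters, thresholds and sample sets. Tables and figures were made with Python 3.11.15, pandas 2.3.3, scipy 1.17.1 and matplotlib 3.10.9. The deposited circRNA TPM values were not used.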

Additional observations from a re-analysis of the deposited data

Results flagged for a closer look

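The effects of the models over C3H differed from each other by at least 1.5-fold for 3 members, by the contrast between models in a fit of 12 samples. Pde6b rd10 exceeded Pde6b rd1 by 2.74 on the log2 scale for Guca1a and by 2.30 for Guca1b. Prph rd2 was higher than Pde6b rd1 by 0.84 for Gucy2e, 1.80 for Guca1a and 2.06 for Guca1b. Guca1a was also higher in Pde6b rd10 than in Prph rd2, by 0.93. Age and sex-linked transcripts differed between the models in all 6 comparisons, and strain, by the methods or the labels, in some. The parts of age, sex and strain were not tested.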

How the results depend on the processing

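Of the members' log2 fold changes under the alternatives, 550 kept their direction and call, 5 turned, 2 lost the call and 1 gained it. Without 1 replicate, Gucy2e in Prph rd2 against C3H ranged from -0.0088 to 0.0205, and against the C3H sample of day 29 alone it was -0.0035; Rd3 in Pde6b rd10 against Pde6b rd1 ranged from -0.0305 to 0.0219. Gucy2f in Pde6b rd1 lost its call with limma on log2 of FPKM plus 1, with and without a filter (-0.58). In Pde6b rd10 against Prph rd2, Gucy2f ranged from -0.60 to -0.47 without 1 replicate, and 1 to 2 members were called; it was called without replicate 2 of Prph rd2. Against the C3H sample of the same day alone, 17 of 18 member values kept direction and call. Of 465 counts of called genes in the other gene lists, 37 moved by over 1.5 times, to between 0 and 2 genes.

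The number of genes called moved more. With limma on log2 of FPKM plus 1 it was 1180 in Pde6b rd1 (1059 with a filter at FPKM 1), 2192 (1859) in Pde6b rd10 and 174 (166) in Prph rd2, and between models 3046 (2722) for Pde6b rd10 against Pde6b rd1, 1151 (1103) for Prph rd2 against Pde6b rd1 and 1884 (1628) for Pde6b rd10 against Prph rd2, where edgeR called 2749, 4479, 850, 5644, 3308 and 3862. In Prph rd2 the number was also 1300 without a filter, 1280 with 0.1 added, 384 at an adjusted p under 0.05 and 745 to 1435 without 1 replicate, the highest without replicate 2 of Prph rd2; the cause was not tested.

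Samples were not treated as paired by replicate number. In no comparison were the correlations of same-numbered samples above 0.1 in every pair (from -0.11 to 0.30 over all). Some pairs were above it: between Prph rd2 and Pde6b rd1, replicates 2 and 3 gave 0.28 and 0.30, and replicate 1 gave -0.11. A shared batch was not tested. With the number as a replicate block, 2774, 4434, 855, 5696, 3316 and 3896 genes were called in the same order, and all 36 member values kept direction and call.

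Against rod genes without Pde6b, the Pde6b rd1 values were 0.098 for Gucy2e, 0.23 for Gucy2f, -1.08 for Guca1a, -1.84 for Guca1b, 0.63 for Rd3 and 0.20 for Impdh1, each with its direction kept. A planned reference of 1 gene is not reported here. Depth limits the circRNA reads, with at most 37 Gucy2f junction reads in a sample, and not the members' gene counts.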
